A study of Caenorhabditis elegans with 8 samples.

Results

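The genes described here are 10 tubulin genes of Caenorhabditis elegans, 9 for alpha-tubulin (tba-1, tba-2, tba-4 to tba-9 and mec-12) and 1 for beta-tubulin (tbb-2), followed through exit from the dauer stage. They were taken by gene symbol from a fixed list of tubulin names, because the alpha-tubulin family had stood out in the comparison of dauer exit with dauer on these same arrays. All 10 were measured, by 27 of the 27263 probes with a gene symbol, among 15078 genes in all. Because the contrast of dauer exit with dauer led to their choice, the values of that contrast are given for them as a description, without a test.

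Alpha- and beta-tubulin form the dimer from which microtubules are built, the tracks of intracellular transport, the fibres of the mitotic spindle and the core of the cilium. In C. elegans some isotypes are used in most cells, whereas others serve a few cell types, such as the touch receptor neurons with their unusually large microtubules or the ciliated sensory neurons. Dauer larvae are a non-feeding, long-lived and growth-arrested larval stage, and they resume feeding and development when food returns.

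RNA of dauer exit, dauer and mix-stage cultures of wild-type N2 Bristol worms was hybridised on 2-colour Agilent oligonucleotide arrays. Dauer exit samples were purified dauers kept for 12 h on plates with the bacterial food OP50. Dauer samples were larvae from liquid cultures, which the study purified with SDS, sucrose flotation and Ficoll, and the labels and the methods differ on the temperature of those cultures. Mix-stage RNA, from plates with all developmental stages, was the common reference, and the study pooled its 4 extracts, so that it counts as 1 control sample. Each of the 8 arrays paired 1 sample of its own with that pool, with 4 arrays per stage, which the study describes as biological replicates from parallel cultures. Replicates 1 and 4 of dauer exit and replicates 1 and 2 of dauer had their own RNA in the dye Cy5, and the other 2 of each stage had it in Cy3. All values below are log2 ratios of own RNA over mix-stage RNA, so that 0 is the mix-stage level, and they compare equal amounts of total RNA. A gene's value is the mean of its probes. In RNA of whole worms, fewer cells of a type and less RNA per cell cannot be told apart. Over all genes the arrays had medians between -0.15 and -0.03, and the turned ratios correlated at 0.46 to 0.75 within dauer exit, at 0.47 to 0.79 within dauer and at 0.11 to 0.61 between the stages. The small heat shock gene hsp-12.6, a dauer stage marker, averaged -0.50 ± 0.66 in dauer exit and 4.80 ± 1.33 in dauer (SD, n = 4 each). Not all such markers did so: of the 9 measured, 3 were higher than mix-stage in dauer and 2 lower in the test given below. Sequences of the probes were not used here, so a probe that also matches another tubulin gene could not be set apart.

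The tubulin genes showed 2 main patterns. The broadly used tba-1, tba-2 and tba-4, the epidermal tba-8 and the touch neuron gene mec-12 were far below mix-stage in dauer and higher in dauer exit on every array, and tbb-2 tended the same way with overlap. The genes known from ciliated neurons, tba-5, tba-6 and tba-9, averaged close to the mix-stage level in both stages, and tba-7 was lower in dauer exit on average. Whether the probes of tba-5, tba-6 and tba-9 were too dim to show a change was not tested, as spot intensities were not used here. The median of the 10 genes lay at -0.18 in dauer exit and at -1.24 in dauer, against medians of -0.08 and -0.05 over all genes. Array by array the median of the 10 was -0.04, -0.36, -0.28 and -0.23 in dauer exit, against -1.69, -1.40, -0.79 and -1.22 in dauer. The stages did not overlap in this median, and all 8 medians over all genes were close to 0. The genes were chosen because of this contrast, so nothing is read from that separation.

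The median difference of dauer exit minus dauer over the 10 genes was 1.01, against -0.03 over all 15078 genes. In 5 of the 10 genes the arrays of the stages did not overlap, each time with dauer exit higher, whereas 9.55% of all genes had stages that did not overlap, 4.18% with dauer exit higher. As this contrast led to the choice of the genes, nothing is read from that count.

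**Figure D1:**
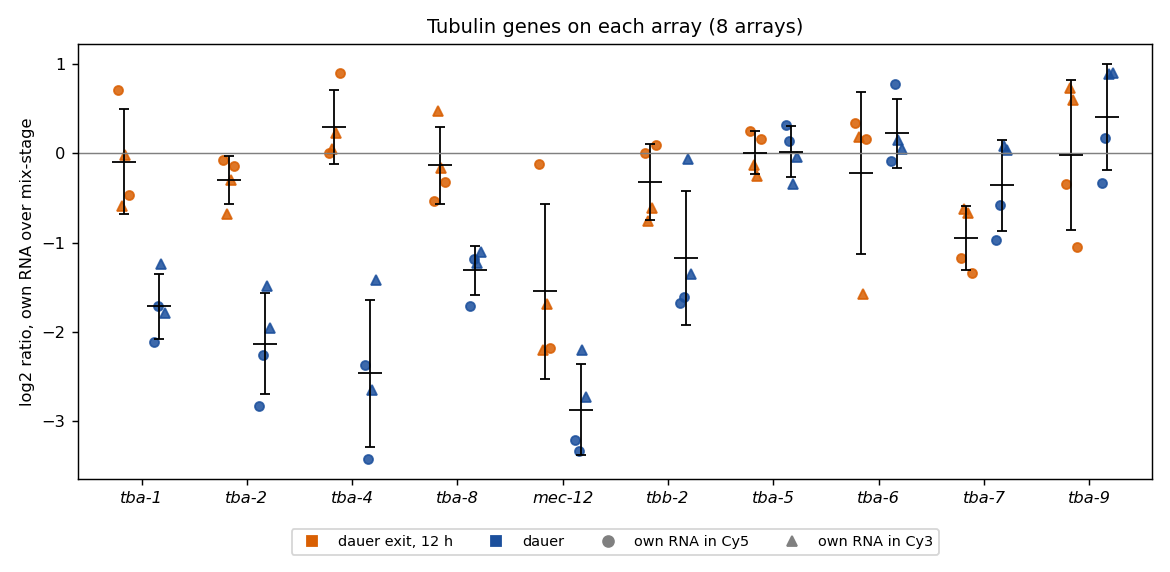
Log2 ratio of own RNA over mix-stage RNA (vertical axis) of each of the 10 tubulin genes on each of the 8 arrays, with dauer exit in orange and dauer in blue, circles for own RNA in Cy5 and triangles for own RNA in Cy3, and bars for the mean and SD of the 4 arrays. The dauer arrays of tba-1, tba-2, tba-4 and tba-8 all lie below their dauer exit arrays, whereas the stages of tba-5, tba-6, tba-7, tba-9 and tbb-2 overlap.

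Largest was the difference of tba-4, an alpha-tubulin of many somatic tissues. It had log2 ratios of 0.00, 0.05, 0.23 and 0.90 on the dauer exit arrays, against -2.36, -3.42, -2.65 and -1.42 on the dauer arrays. Every dauer exit array was at or above the mix-stage level and every dauer array well below it. The mean was 0.29 ± 0.41 in dauer exit and -2.46 ± 0.83 in dauer (SD, n = 4 each), a difference of 2.76 with a model SE of 0.41, or 6.76-fold. It was 3.34 where own RNA was in Cy5 and 2.17 where it was in Cy3. A single probe measured tba-4.

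The alpha-tubulins tba-1 and tba-2 are the main ones of the early embryo, where they act together in the spindle, and are also used widely in somatic cells. For tba-2 the log2 ratios were -0.08, -0.67, -0.30 and -0.14 in dauer exit, against -2.83, -2.25, -1.48 and -1.95 in dauer. For tba-1 they were 0.71, -0.59, -0.02 and -0.47 in dauer exit, against -2.11, -1.70, -1.24 and -1.78 in dauer. In both genes the lowest dauer exit array stood above the highest dauer array. The mean of tba-2 was -0.30 ± 0.27 in dauer exit and -2.13 ± 0.57 in dauer, 3.56-fold higher in dauer exit (difference 1.83, SE 0.30). That of tba-1 was -0.09 ± 0.59 in dauer exit and -1.71 ± 0.36 in dauer, 3.07-fold higher (difference 1.62, SE 0.32). Each gene had 3 probes, and all of them were higher in dauer exit, by 1.71 to 2.04 for tba-2 and by 0.97 to 2.40 for tba-1.

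The epidermal alpha-tubulin tba-8 had log2 ratios of -0.53, 0.47, -0.16 and -0.32 in dauer exit, against -1.71, -1.19, -1.23 and -1.10 in dauer. The dauer arrays were close to one another and all below the dauer exit arrays. Its mean was -0.13 ± 0.43 in dauer exit and -1.31 ± 0.27 in dauer, 2.25-fold higher in dauer exit (difference 1.17, SE 0.27). Here the difference was about the same in both dye orientations, 1.02 with own RNA in Cy5 and 1.32 with own RNA in Cy3.

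The gene mec-12 encodes the alpha-tubulin of the touch receptor neurons, and its product carries the lysine that is acetylated in their microtubules. Its log2 ratios were -0.12, -2.20, -1.68 and -2.17 in dauer exit, against -3.20, -3.33, -2.20 and -2.73 in dauer. Dauer exit replicate 1 stood far above the other 3, and the lowest dauer exit array and the highest dauer array differed by less than the rounding shown. The mean was -1.54 ± 0.98 in dauer exit and -2.87 ± 0.51 in dauer, 2.5-fold higher in dauer exit (difference 1.32, SE 0.47), and without dauer exit replicate 1 the difference was 0.85. The difference was 2.12 with own RNA in Cy5 and 0.53 with own RNA in Cy3. It was the only one of the 10 genes besides tba-7 with a mean below -0.5 in dauer exit, and its RNA was 7.3-fold lower in dauer than in mix-stage.

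The beta-tubulin tbb-2, a major beta-tubulin of embryos and many somatic cells, had log2 ratios of 0.01, -0.76, -0.61 and 0.09 in dauer exit, against -1.67, -1.61, -0.07 and -1.35 in dauer. Dauer replicate 3, at -0.07, lay within the range of dauer exit. The mean was -0.32 ± 0.43 in dauer exit and -1.17 ± 0.75 in dauer (difference 0.85, SE 0.39). The difference was 1.69 with own RNA in Cy5 but 0.02 with own RNA in Cy3. All 6 of its probes were higher in dauer exit, by 0.35 to 1.27.

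**Figure D2:**
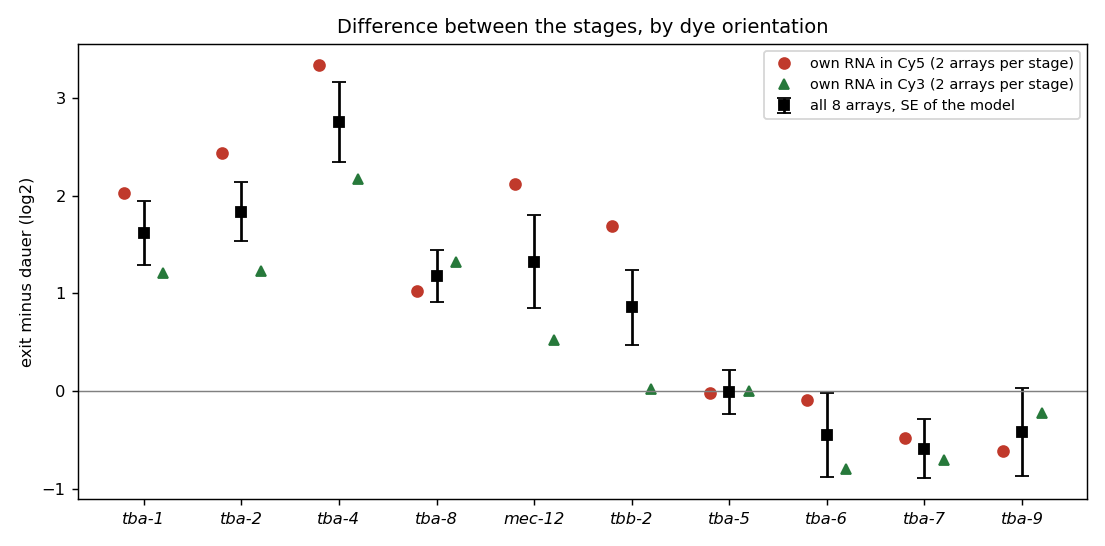
Difference of dauer exit minus dauer (vertical axis, log2) of the 10 tubulin genes with own RNA in Cy5 (red circles, 2 arrays per stage), with own RNA in Cy3 (green triangles, 2 arrays per stage) and over all 8 arrays (black squares, bars are the SE of the model). For tba-4 both orientations exceed 2, whereas tbb-2 is at 1.69 in Cy5 and 0.02 in Cy3.

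Over the 10 genes the median difference was 1.35 with own RNA in Cy5 and 0.27 with own RNA in Cy3. In 6 genes both orientations were higher in dauer exit, and in the other 4 both were lower. Some of these values were near 0, as for tba-5 (-0.02 in Cy5 and -0.001 in Cy3) and for tbb-2 in Cy3 (0.02). The share of all genes with such agreement was not computed. As this contrast led to the choice of the genes, nothing is read from these counts. Each stage held 2 arrays of each orientation, so a dye term in the model could not change the median difference of 1.01 over the 10 genes. That fit therefore says nothing about the effect of the dye on the difference. Whether the difference itself varies with the orientation was not tested.

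Among the alpha-tubulins known from ciliated neurons, tba-5 had log2 ratios of 0.25, -0.13, -0.26 and 0.17 in dauer exit, against 0.32, 0.14, -0.34 and -0.04 in dauer. No array was further than 0.35 from the mix-stage level, and the stages differed by -0.01 (SE 0.23). The gene tba-9 had 0.74 and 0.60 on the dauer exit arrays with own RNA in Cy3 and -0.35 and -1.04 on those with own RNA in Cy5, against 0.89 and 0.90 in Cy3 and -0.33 and 0.17 in Cy5 in dauer. In both stages the arrays separated by dye, with those in Cy3 higher, and the stages differed by -0.42 (SE 0.45). For tba-6 the log2 ratios were 0.34, 0.19, -1.58 and 0.16 in dauer exit, against -0.09, 0.78, 0.15 and 0.05 in dauer. Dauer exit replicate 3 stood alone, and there 1 of the 3 probes of tba-6 was at -3.85 while the others were at -0.56 and -0.32. In dauer replicate 2 likewise 1 probe was at 2.20 and the others at 0.25 and -0.10. With the median of the probes in place of their mean, the stages differed by -0.05 in tba-6, in place of -0.45 (SE 0.43). The mean of the probes gave 0.00 without dauer exit replicate 3 and -0.26 without dauer replicate 2.

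The alpha-tubulin tba-7 ran the other way. Its log2 ratios were -1.17, -0.62, -0.67 and -1.34 in dauer exit, against -0.97, -0.57, 0.09 and 0.04 in dauer. Dauer replicate 1 lay within the range of dauer exit, dauer replicate 2 just above it, and the 2 dauer arrays with own RNA in Cy3 further above. The mean was -0.95 ± 0.36 in dauer exit and -0.36 ± 0.51 in dauer (difference -0.59, SE 0.30), with -0.48 in Cy5 and -0.71 in Cy3. All 6 of its probes were lower in dauer exit, by differences of -1.11 to -0.15, and 1 of them was much lower than the other 5 against mix-stage, at -2.40 in dauer exit and -1.69 in dauer.

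**Figure D3:**
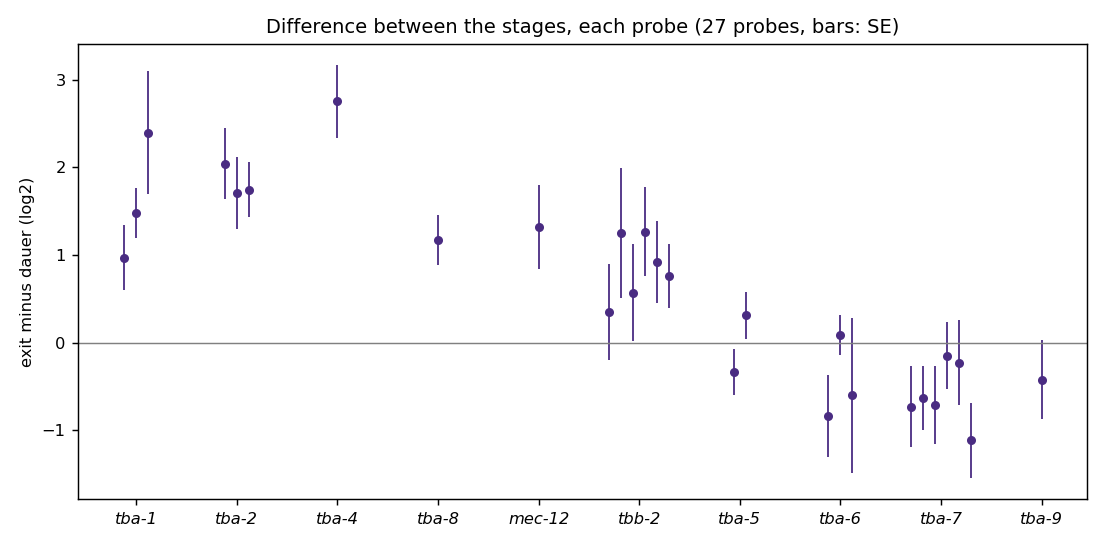
Difference of dauer exit minus dauer (vertical axis, log2, bars are the SE of a fit over single probes) for each of the 27 probes, grouped by tubulin gene. The probes of tba-1, tba-2 and tbb-2 all lie above 0 and the 6 of tba-7 all below it, whereas those of tba-5 and tba-6 lie on both sides.

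Whether the tubulin genes differed from mix-stage over both stages together was asked as well. With equal numbers of arrays and equal spread, the errors of the average and of the difference between the stages are uncorrelated. The spreads were not equal in every gene, as for tba-4 (SD 0.41 in dauer exit, 0.83 in dauer). Where dauer exit lay near mix-stage, the average also follows the dauer level, which entered the choice of the genes. The calls below are therefore not independent of that choice. In limma's moderated test over all genes with Benjamini-Hochberg adjustment, called at an adjusted p of 0.05 or less, 7 of the 10 genes were lower than mix-stage and 0 higher (0 also at an unadjusted p under 0.05), against 17.4% of all genes lower and 3.1% higher. The median of the 10 genes was -0.73, against -0.05 over all genes.

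The largest of these differences was that of mec-12, 4.61-fold lower than mix-stage over both stages (log2 -2.21, SE 0.24, adjusted p = 0.000169), with all 8 arrays below mix-stage. Next came tba-2, at -1.21 (SE 0.15, adjusted p = 0.000419), also below mix-stage on all 8 arrays. The average of tba-4 was -1.08 (SE 0.20, adjusted p = 0.00449), that of tba-1 was -0.90 (SE 0.16, adjusted p = 0.0035) and that of tba-8 was -0.72 (SE 0.13, adjusted p = 0.00402). For these 3 genes and for tba-2 the mean of the dauer exit arrays was within 0.3 of the mix-stage level, so the average was carried mainly by dauer. The means of tba-2 were -0.30 in dauer exit and -2.13 in dauer. The call of tbb-2 was less secure, at -0.75 (SE 0.19, adjusted p = 0.0224). It was lost when any 1 of 5 arrays was left out (dauer exit replicates 2 and 3 and dauer replicates 1, 2 and 4), with adjusted p-values of 0.0599 to 0.0715. The average of tba-7 was -0.65 (SE 0.15, adjusted p = 0.0132), and with the median of its probes it was -0.51 (adjusted p = 0.0915), which did not pass. The 3 genes of ciliated neurons did not pass, with averages of 0.01 for tba-5 (adjusted p = 0.96), 0.00 for tba-6 (adjusted p = 0.999) and 0.20 for tba-9 (adjusted p = 0.658). With the arrays of own RNA in Cy3 alone, tba-9 was higher than mix-stage (0.78, adjusted p = 0.0229), and with those in Cy5 alone it was at -0.39 (adjusted p = 0.248). Of the 7 genes lower than mix-stage, 6 passed on the arrays in Cy5 alone (all but tba-1) and 3 on those in Cy3 alone (tba-1, tba-2 and mec-12).

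**Figure D4:**
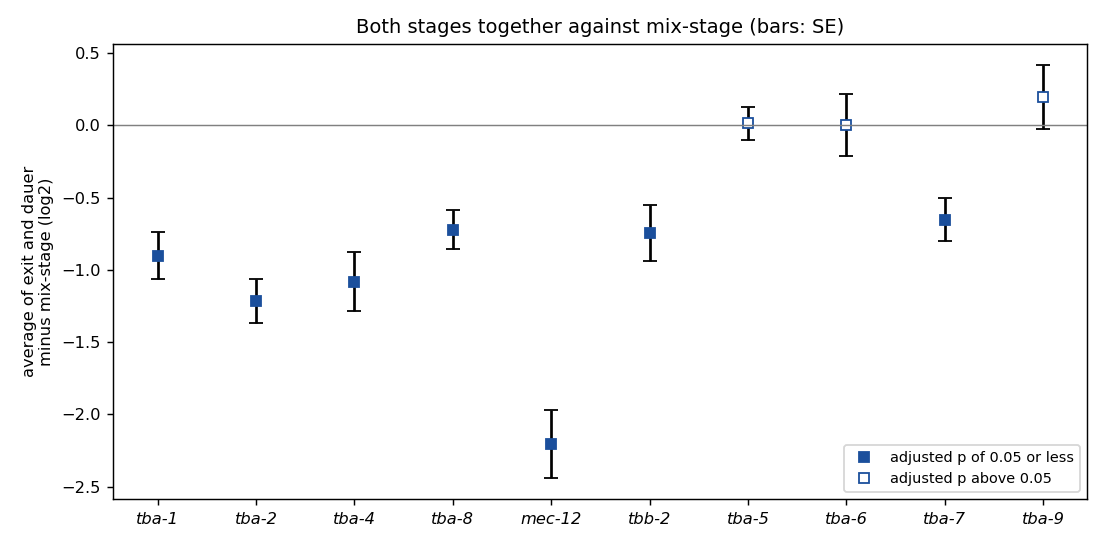
Average of dauer exit and dauer minus mix-stage (vertical axis, log2, bars are the SE of the model) for the 10 tubulin genes, with filled squares for an adjusted p of 0.05 or less and open squares above it. The 7 filled genes are below 0, with mec-12 lowest at -2.21, whereas tba-5, tba-6 and tba-9 are near 0.

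Of the 7 other tubulin genes looked for, the 5 beta-tubulins tbb-1, tbb-4, tbb-6, mec-7 and ben-1 and the gamma-tubulin tbg-1 were measured, while tba-3 is not analysed here. They were tested between the stages, where 1.88% of all genes were higher and 2.13% lower in dauer exit. The embryonic and widely used beta-tubulin tbb-1 had log2 ratios of 0.21, -1.02, -0.73 and 1.13 in dauer exit, against -2.29, -2.92, -1.45 and -2.49 in dauer. All dauer exit arrays were above all dauer arrays, and tbb-1 rose by 2.19 (SE 0.49, 4.55-fold, adjusted p = 0.0418 in limma's test). The beta-tubulin tbb-6, known to be induced when mitochondria are stressed, had log2 ratios of -0.09, 0.16, -0.97 and 0.06 in dauer exit, against 0.99, 1.80, 2.06 and 1.09 in dauer. It was the reverse of tbb-1, with dauer above mix-stage on every array (1.49, adjusted p = 0.00221), and fell by 1.70 (SE 0.34, 3.24-fold, adjusted p = 0.0274). The difference of tbb-1 was 3.28 in Cy5 and 1.09 in Cy3, and that of tbb-6 was -1.41 in Cy5 and -1.98 in Cy3. Both calls were lost when any 1 of 6 arrays was left out, with adjusted p-values of 0.0734 to 0.121 for tbb-1 (all but dauer exit replicate 2 and dauer replicate 3) and of 0.0509 to 0.0693 for tbb-6 (all but dauer replicates 1 and 3).

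The gene mec-7 encodes the beta-tubulin that pairs with the mec-12 product in touch receptor neurons. Its log2 ratios were 0.51, -1.44, -1.62 and -0.44 in dauer exit, against -3.73, -4.56, -1.05 and -2.70 in dauer. Dauer replicate 3 lay within the range of dauer exit, and the difference of 2.26 (SE 0.74) did not pass (adjusted p = 0.155), though it did without that array (2.91, adjusted p = 0.0319). In dauer mec-7 was lower than mix-stage, at -3.01 (adjusted p = 0.00326). The beta-tubulin ben-1, the target of benzimidazole drugs, differed by 0.59 (adjusted p = 0.681), the ciliary beta-tubulin tbb-4 by 0.01 (adjusted p = 0.996) and the centrosomal tbg-1 by -0.23 (adjusted p = 0.853). Over both stages tbb-1, mec-7, ben-1 and tbg-1 were lower than mix-stage (averages of -1.20, -1.88, -0.85 and -0.68, adjusted p-values of 0.00733, 0.00581, 0.0333 and 0.0163) and tbb-6 was higher (0.64, adjusted p = 0.026).

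**Figure D5:**
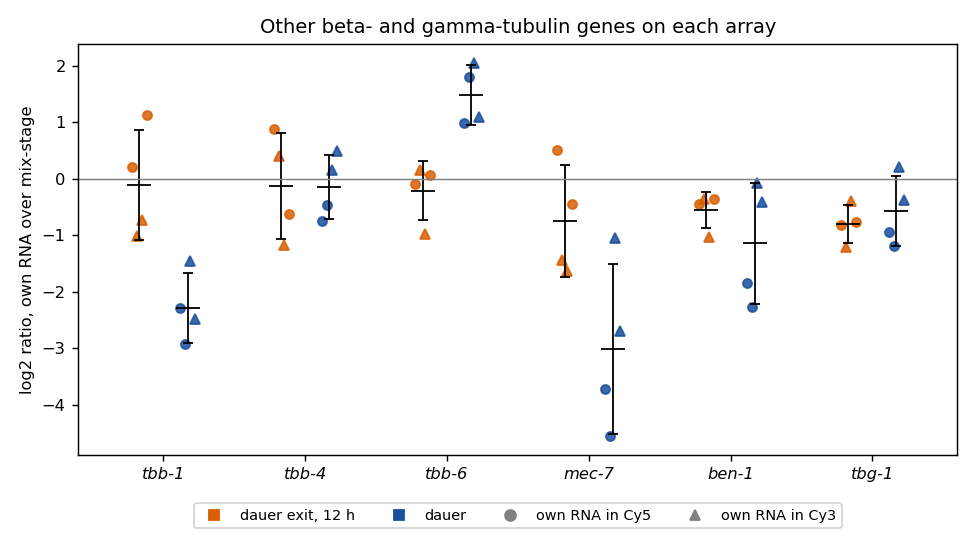
Log2 ratio of own RNA over mix-stage RNA (vertical axis) of 5 beta-tubulin genes and the gamma-tubulin gene tbg-1 on each of the 8 arrays, with dauer exit in orange and dauer in blue, circles for own RNA in Cy5 and triangles for own RNA in Cy3, and bars for the mean and SD of the 4 arrays. The dauer arrays of tbb-1 lie below and those of tbb-6 above all their dauer exit arrays, whereas the stages of tbb-4, mec-7, ben-1 and tbg-1 overlap.

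Genes that fold, modify, bind or move along microtubules were tested between the stages too. Together with the other tubulins, 5 lists held 100 measured genes, of which 1 was higher and 2 were lower in dauer exit, close to the 1.88% higher and 2.13% lower of all genes, with a median difference of 0.00. Of 15 genes for prefoldin, the CCT chaperonin and other tubulin folding factors, 0 were called in limma's test (2 at an unadjusted p under 0.05), with cct-3, a subunit of that chaperonin, at -0.76 (adjusted p = 0.278) and the prefoldin subunit pfd-5 at -0.58 (adjusted p = 0.142). Of 9 genes for tubulin modification and severing 0 were called (0 at an unadjusted p under 0.05), with ttll-15 at 0.71 (adjusted p = 0.384) and ttll-5 at -0.60 (adjusted p = 0.611), both of the tubulin tyrosine ligase-like family. Of 27 genes for microtubule-associated and plus-end proteins 0 were called (5 at an unadjusted p under 0.05), with the centrosomal scaffold protein spd-5 at 0.92 (adjusted p = 0.115) and tpxl-1, an activator of Aurora A, at 0.61 (adjusted p = 0.181). Of 44 kinesin and dynein genes 0 were higher and 1 was lower, the dynein light chain dlc-4, which fell by 0.93 (SE 0.21, adjusted p = 0.0398). That call was lost when any 1 of 7 arrays was left out, all but dauer replicate 3, with adjusted p-values of 0.0654 to 0.116.

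Against mix-stage, 5 of the 100 genes were higher and 17 lower in dauer, where 4.92% of all genes were higher and 13.6% lower. In dauer exit 0 were higher (2 at an unadjusted p under 0.05) and 9 were lower, where 0.458% of all genes were higher and 9.07% lower.

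Markers of the cells and stages that could move with the tubulins were looked at in the same way. The germline, where tba-1, tba-2, tbb-1 and tbb-2 are used, was represented by 34 genes. Their median per array ranged from -1.19 to -0.54 in dauer exit and from -1.74 to -0.79 in dauer, with 15 genes lower than mix-stage in dauer exit and 23 in dauer, where 9.07% of all genes were lower in dauer exit and 13.6% in dauer. Between the stages 0 of the 34 were called (5 at an unadjusted p under 0.05), with a median of 0.12 and with glh-1, a helicase of germ granules, at 1.97 (adjusted p = 0.173) and cgh-1 at 0.76 (adjusted p = 0.252). Of 12 adult yolk and sperm genes 8 were lower than mix-stage in each stage, beside the same shares of all genes. Between the stages 0 were called (0 at an unadjusted p under 0.05), with vit-6, a yolk protein, at -3.47 ± 0.94 in dauer exit and -2.66 ± 1.00 in dauer. The sperm genes spe-38, spe-9, spe-11 and fer-1 were near 0 in both stages. In contrast, gsp-3 (-1.43 in dauer exit, -1.30 in dauer) and gsp-4 (-1.42 and -1.11) were called lower in both. The part of germline and adult RNA in the tubulin values was not tested.

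Touch receptor neuron markers, with other genes needed for touch sensation in the same list, stood beside mec-12 as follows. Of 14 genes 0 were called between the stages (2 at an unadjusted p under 0.05), with a median of -0.22, and per array their median ranged from -0.52 to -0.04 in dauer exit and from -0.30 to 0.46 in dauer. The homeobox gene mec-3, which specifies these neurons, was at 0.10 ± 0.57 in dauer exit and 0.98 ± 0.41 in dauer, and mec-5, a collagen needed for touch sensation, was at -0.80 ± 0.66 in dauer exit and -2.04 ± 0.80 in dauer. Neither passed between the stages (adjusted p = 0.217 and 0.201). Against mix-stage in dauer, 1 gene of the list was called higher and 1 lower, mec-3 (adjusted p = 0.0162) and mec-5 (adjusted p = 0.00172), where 4.92% of all genes were higher and 13.6% lower. Outside that list, the touch neuron gene mec-7 was below mix-stage in dauer as well, as given above. So was mec-17, at -1.88 in dauer (adjusted p = 0.00767) and -1.83 in dauer exit (adjusted p = 0.0166). The part of touch neuron RNA in the mec-12 values was not tested.

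Cilium markers, which bear on tba-5, tba-6 and tba-9, had 0 of 30 genes called between the stages (8 at an unadjusted p under 0.05) with a median of -0.52. Per array their median ranged from -0.29 to 0.12 in dauer exit and from 0.12 to 0.72 in dauer, and 0 genes were higher than mix-stage in dauer exit (0 at an unadjusted p under 0.05) and 4 in dauer, where 0.458% of all genes were higher in dauer exit and 4.92% in dauer. The intraflagellar transport genes osm-1 and che-11 differed by -1.01 (adjusted p = 0.0847) and -1.07 (adjusted p = 0.0838). Between the stages, where 2.13% of all genes fell, 2 of 17 pan-neuronal genes fell, sbt-1, which encodes the 7B2 chaperone of a propeptide convertase, with a difference of -2.56 (adjusted p = 0.0361), and ric-19 with one of -2.15 (adjusted p = 0.0249), both functioning in dense-core vesicles. Of 9 dauer stage markers, 3 were higher than mix-stage in dauer and 2 lower in limma's test, where 4.92% of all genes were higher and 13.6% lower. The lower ones were lys-8, at -3.54 (adjusted p = 0.00176), and ctl-2, at -1.67 (adjusted p = 0.00522). Between the stages 3 of the 9 fell, with differences of -5.30 for hsp-12.6 (adjusted p = 0.00335), -4.64 for the metallothionein mtl-1 (adjusted p = 0.00342) and -2.10 for dao-6 (adjusted p = 0.0292). Single arrays decided 3 of these calls, lost without any 1 of 7 arrays for sbt-1 (all but dauer replicate 2, adjusted p-values of 0.0654 to 0.107), of 4 for ric-19 (dauer exit replicates 1, 2 and 4 and dauer replicate 4, 0.0527 to 0.0785) and of 5 for dao-6 (dauer exit replicates 1, 2 and 3 and dauer replicates 3 and 4, 0.0524 to 0.0919).

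The genes closest to the ends of the tubulin range were looked up among 7229 genes with a standard symbol, by the root mean square of the log2 difference over the 8 arrays. For tba-4, highest in dauer exit relative to dauer, the closest were the collagen genes col-128 (0.464) and dpy-7 (0.523) and the peptidyl-prolyl isomerase gene fkb-3 (0.526), while the closest tubulin, tba-2, was at 0.799. Their means were 0.42, 0.50 and 0.22 in dauer exit, against -2.53, -2.57 and -2.82 in dauer, and they were picked for their likeness to tba-4, so nothing is read from these values. For tba-7, lowest in dauer exit relative to dauer, the closest were lips-16 (0.191), kin-15 (0.239) and try-8 (0.273), while the closest tubulin, tba-9, was at 0.906.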

How the data were processed

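RNA of dauer exit and dauer worms was compared with pooled mix-stage RNA on 8 arrays. What the authors deposited is, per feature and array, the log2 of the Cy5 over the Cy3 signal. GenePix was used for scanning, and limma (version not given in the sources used here) for a normexp background correction and a loess normalization within arrays, in which spike-in controls were weighted apart from the probes, so that the bulk of the genes could move from 0. No further normalization was applied. The columns had medians of -0.09 to 0.14. Columns of opposite dye orientation correlated at -0.70 to -0.05 and those of one orientation at 0.22 to 0.74, and each was turned to own RNA over mix-stage by the dyes in the labels. Spot intensities and slide or scan information were not used here, hence no filter on dim probes or block for slides was possible, and precision rests on the number of arrays.

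Of 45220 features 44123 held values, and 27263 had 1 gene symbol in the platform annotation, 0 several, and the rest none. Symbols were updated through the RefSeq accession (19293 probes matched, 98 renamed), and probes of a gene were averaged to 15078 genes, 10517 of them with 1 probe. One coefficient per stage was fitted with lmFit and eBayes of limma 3.58.1 in R 4.3.3, p-values were adjusted by Benjamini-Hochberg over all genes, and the fit was tested on simulated data. Tests against mix-stage leave out the spread of that pool, which counts as 1 sample. The median SE was 0.306 for the difference between the stages and 0.153 for the average.

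The tubulin genes and the 11 gene lists were chosen with earlier results of these data known. All 10 tubulins are named, with the other tubulins, for each list the called genes of largest difference (up to 4) or else the 2 genes with the lowest p-values, and the 3 genes closest to the tubulins at each end. Alternatives were centring or scaling the arrays, the replicate number as a block, a dye term, either dye orientation alone, leaving out each array, the median of probes or single probes, the unchanged symbols and a robust eBayes.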

Additional observations from a re-analysis of the deposited data

Results flagged for a closer look

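In 2 of 32 groups of 4 arrays looked at (16 tubulin genes in 2 stages), 1 array lay far from the other 3, by a gap that took up more of the range than Dixon's critical value for 4 samples allows, and chance alone gives this in about 1 of 20 groups. The first was tba-6 in dauer exit replicate 3, at -1.58 (gap 0.907 of the range). The second was ben-1, also in dauer exit replicate 3, at -1.03 (gap 0.864 of the range).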

How the results depend on the processing

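The 5 tubulin genes whose stages did not overlap were higher in dauer exit under every alternative run. As their arrays did not overlap, leaving out arrays or keeping a single dye orientation could not reverse that sign. The block, the dye term and the robust eBayes left these differences as they were by design. This contrast also led to the choice of the genes, so nothing is read from this. Leaving out each array in turn, the median difference of the 10 genes ranged from 0.80 to 1.21, their dauer median from -1.44 to -1.09, their dauer exit median from -0.37 to -0.17, and 6 to 7 were called lower than mix-stage on average, with 0 higher. With own RNA in Cy5 only, the median difference was 1.35 and the dauer median -1.54. With own RNA in Cy3 only, they were 0.27 and -0.94, and 3 genes were called lower and 1 higher on average. Over all genes, 283 were higher and 321 lower in dauer exit, against 0 of either in limma's test with Cy5 only (1939 at an unadjusted p under 0.05), 58 and 233 with Cy3 only, and 146 to 371 and 131 to 521 without single arrays (fewest lower without dauer exit replicate 3, most without dauer replicate 2).

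For the 100 genes of the microtubule lists, the 5 higher in dauer than in mix-stage became 8 with centred arrays, 1 with Cy5 only and 3 to 6 without single arrays, and the 17 lower became 6 with Cy3 only and 12 to 23 without single arrays. The 9 lower in dauer exit than in mix-stage became 14 on a common scale, 15 with a dye term, 2 with Cy5 only, 3 with Cy3 only and 2 to 12 without single arrays. The 1 higher in dauer exit than in dauer became 2 with centred arrays, 0 on a common scale, 0 with Cy5 only and 0 with Cy3 only, and the 2 lower became 1 on a common scale, 0 with Cy5 only and 0 with Cy3 only; without single arrays each ranged from 0 to 2. The cause was not tested.

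Whether the same replicate numbers pair the samples could not be decided, as the study also started dauer exit cultures from its purified dauers. Deviations from the stage means correlated at 0.07, -0.05, 0.24 and -0.15 between same-numbered arrays, and not every array correlated best with its own number. Replicates 1 and 3 had the same dye orientation in both stages and replicates 2 and 4 opposite ones, so pairing and dye cannot be told apart there. With the replicate number as a block, 253 genes were higher and 236 lower in dauer exit, the 5 microtubule lists gave 0 higher and 0 lower in limma's test (12 and 9 at an unadjusted p under 0.05; adjusted p = 0.0607 for tbb-1, 0.0719 for tbb-6 and 0.086 for dlc-4). Of the 5 marker genes called between the stages, hsp-12.6 (0.0145), mtl-1 (0.0109) and ric-19 (0.0429) passed with the block, while dao-6 (0.0553) and sbt-1 (0.0597) did not, and all 7 tubulin genes were still called lower than mix-stage on average.

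Some small values changed sign. The average of tba-6 was -0.026 on a common scale, -0.30 with Cy3 only, -0.29 at its lowest probe and -0.093 to 0.23 without single arrays. That of tba-5 was -0.19 with Cy3 only and -0.035 to 0.076 without single arrays, and that of tba-9 was -0.39 with Cy5 only. Between the stages, tbb-4 was at -0.10 on a common scale, -0.71 with Cy3 only and -0.32 to 0.36 without single arrays, tbg-1 at 0.27 with Cy5 only and -0.43 to 0.033 without single arrays, ben-1 at -0.46 with Cy3 only and spe-38 at -0.011 with Cy5 only.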

Other observations

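Among the genes of the microtubule lists some stayed below mix-stage in both stages, and the following were picked after their values were seen. The alpha-tubulin acetyltransferase gene mec-17, which is needed in touch receptor neurons, had log2 ratios of -1.86, -1.56, -1.71 and -2.19 in dauer exit, against -1.97, -3.53, -0.49 and -1.53 in dauer. All 8 arrays were below mix-stage (average -1.85, adjusted p = 0.00109 in limma's test), and the stages differed by 0.05 (adjusted p = 0.989). The gene mei-2, the regulatory subunit of the katanin that severs microtubules in the meiotic spindle, was at -3.04 ± 0.41 in dauer exit and -2.82 ± 0.55 in dauer (SD, n = 4 each; average -2.93, adjusted p = 5.41e-06). Its catalytic partner mei-1 averaged -0.34 (adjusted p = 0.0585).

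Centrosome genes differed among themselves, and these too were picked after their values were seen. The Aurora A kinase gene air-1 was at -1.08 ± 0.55 in dauer exit and -1.85 ± 0.17 in dauer (average -1.47, adjusted p = 9.82e-05), and sas-6, needed to form centrioles, at -1.11 ± 0.61 in dauer exit and -1.53 ± 0.40 in dauer (average -1.32, adjusted p = 0.000478). Some other genes of centriole assembly averaged near the mix-stage level, sas-4 at -0.14 (adjusted p = 0.654), sas-5 at 0.11 (adjusted p = 0.647) and zyg-1 at -0.10 (adjusted p = 0.695). The centrosome gene spd-2 averaged lower than mix-stage, at -0.89 (adjusted p = 0.00764). The kinesin klp-19, which acts on chromosomes in the spindle, was at -0.56 ± 0.47 in dauer exit and -1.75 ± 0.31 in dauer. Its difference between the stages of 1.19 (SE 0.28) just missed the threshold (adjusted p = 0.0517). The dynein light chain dlc-3 just missed it in the other direction, at -1.16 (SE 0.28, adjusted p = 0.0514).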
